A study of Mus musculus with 12 samples.

Results

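The transcripts examined here belong to 10 genes of the bone morphogenetic protein (BMP) pathway. They were the 4 inhibitor of DNA binding genes *Id1*, *Id2*, *Id3* and *Id4*, the receptor-regulated SMAD genes *Smad1* and *Smad5*, the inhibitory SMAD genes *Smad6* and *Smad7*, and the receptor genes *Bmpr1a* and *Bmpr2*. They were chosen by gene symbol, as 10 of the 55385 genes in a deposited table of TPM, a unit that gives each transcript's share of its library corrected for length. Each symbol matched a single gene, and values were available in all 12 libraries of sorted mouse spermatogonia.

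BMP ligands are secreted dimers that bring together type I receptors such as BMPR1A and type II receptors such as BMPR2, which phosphorylate SMAD1 and SMAD5. The phosphorylated SMADs enter the nucleus with SMAD4 and act on target genes, of which the ID genes and *Smad6* and *Smad7* are textbook examples. SMAD6 and SMAD7 in turn inhibit the pathway. ID proteins carry a helix-loop-helix but no DNA-binding region, and they hold E proteins away from tissue-specific bHLH factors. In the testis, *Id4* is widely used as a marker of spermatogonial stem cells, and BMP4 is known for its part in germ cell specification and spermatogonial differentiation.

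The libraries formed 6 groups of 2. WT Aundiff (undifferentiated spermatogonia, sorted as E-Cadherin+ CD9high KIT-) and WT Adiff (early differentiating spermatogonia, sorted as E-Cadherin+ CD9medium KIT+) came from untreated C57BL/6 males at 2 to 3 mo. PRC1ctrl and PRC1cKO Aundiff came from C57BL/6 X FVB/NJ males at 2 mo, and a further pair of groups with these labels came from males given Win18,446, an inhibitor of retinoic acid synthesis, from 1 mo of age in about 30 daily injections in DMSO and also 2 mo old at collection. The words "at 2 mo" stand below for the untreated PRC1 libraries alone. PRC1ctrl males were Ring1-/-; Rnf2 F/+; Ddx4-Cre and PRC1cKO males were Ring1-/-; Rnf2 F/-; Ddx4-Cre, so both genotypes lacked *Ring1*. The floxed *Rnf2* allele of both is open to deletion where the germ cell promoter of *Ddx4* drives Cre, and the other *Rnf2* allele is wild type in PRC1ctrl and null in every cell in PRC1cKO. The WT and Win18,446 libraries were made from 100000 to 150000 pooled cells with a stranded mRNA kit, and the untreated PRC1 libraries from 7000 pooled cells with a low-input kit that does not mark strand. Kit, cell number and treatment therefore cannot be told apart between the untreated and the treated PRC1 libraries. WT differs from all PRC1 libraries in strain and in *Ring1*, and from the untreated ones also in kit and cell number. Nothing states how many animals each library represents, so p-values measure the spread between these libraries.

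Checks of the labels gave a mixed result. Summed TPM of 12 markers of undifferentiated spermatogonia was 1021 and 1154 in WT Aundiff against 295 and 326 in WT Adiff, and 9 markers of differentiating spermatogonia gave 457 and 500.0 against 1512 and 1514. *Ring1* was at 0.03 to 0.25 TPM in the 8 PRC1 libraries and at 8.61 to 19.9 TPM in WT. *Rnf2*, however, was not lower under the label PRC1cKO. It was at 28.3 and 47.6 TPM in the untreated libraries labelled PRC1ctrl and at 56.7 and 67.5 TPM in those labelled PRC1cKO, and after Win18,446 at 78.1 and 67.2 against 86.2 and 93.1 TPM. TPM per gene cannot separate deleted from remaining exons, so the genotypes are given below only as the labels of the libraries. From earlier work, the paper cites near-complete loss of the histone mark H2AK119ub in germ cells of PRC1cKO mice. It also reports a global loss of the mark H3K27me3 at promoters in PRC1cKO Aundiff. Neither measure was examined here. The low-input libraries held 12422 to 13986 genes at 1 TPM or more against 14796 to 16599 in the others, and mitochondrial transcripts took 12.5% to 16.7% of their TPM against 4.28% to 6.69%.

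The genes lie on 9 chromosomes of GRCm38, and all are protein coding. *Id1* lies at chr2:152736251-152737410 and *Id3* at chr4:136143497-136145755 on the plus strand, *Id2* at chr12:25093799-25097140 on the minus strand and *Id4* at chr13:48261228-48266026 on the plus strand. *Smad1* lies at chr8:79338395-79399518 and *Smad6* at chr9:63953076-64022059, both on the minus strand, and *Smad5* at chr13:56703010-56742377 and *Smad7* at chr18:75367529-75395935, both on the plus strand. *Bmpr1a* lies at chr14:34410734-34503341 on the minus strand and *Bmpr2* at chr1:59763400-59879014 on the plus strand. Other genes overlapped 4.44% of the exonic bases of *Id4* and 4.57% of those of *Bmpr1a* on the opposite strand, and 1.35% of those of *Smad5* on the same strand. Strand cannot separate the reads of the opposite-strand overlaps in the low-input libraries, nor those of the *Smad5* overlap in any library. How such reads were shared out in the deposited TPM was not examined.

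RefSeq promoter windows on GRCm38.p6, from 250 bases before to 50 after the start of transcription, were matched for 8 of the 10 genes. *Id1* and *Smad7* were not matched. They were searched for GGCGCC, a GC-rich SMAD1/5 motif, GTCTAGAC, a palindromic SMAD motif, and the E-box forms CACGTG and CAGCTG, each of which reads the same on both strands, and no 2 matches of different motifs overlapped in these windows. GGCGCC was found in 6 of the 10 windows of these genes, which belong to 5 of the 8 genes, and in 11.9% of all 32851 windows. Of the 6, 2 are windows of *Smad5* that share a single match. The members' windows had a GC content of 59.3% to 79.3% against a median of 52.7% over all windows, and the part of GC content in this count was not tested. GTCTAGAC was found in *Smad6* alone among the 8, and in 0.213% of all windows. CAGCTG was found in *Id2* alone among them (16.3% of all windows) and CACGTG in none (7.15%). A match is a run of letters and not a shown binding site, and a missing match says only that the letters are not in this window.

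The windows of *Id4*, which had the largest change between the WT fractions, and of *Smad6*, the gene with the palindromic motif, are shown 5′ to 3′ from 240 bases before to 10 after the start, with the matched motif in capitals. The *Id4* window lies at chr13:48260876-48261125 on the plus strand, with its GGCGCC 148 bases before the start. The *Smad6* window lies at chr9:64022050-64022299 on the minus strand, with GTCTAGAC beginning 4 bases before the start and running across it.
Id4: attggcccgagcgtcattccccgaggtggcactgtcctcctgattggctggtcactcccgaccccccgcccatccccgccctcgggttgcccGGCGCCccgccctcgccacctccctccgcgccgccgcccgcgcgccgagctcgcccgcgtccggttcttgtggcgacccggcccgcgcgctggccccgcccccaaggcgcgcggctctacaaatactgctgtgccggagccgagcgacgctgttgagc
Smad6: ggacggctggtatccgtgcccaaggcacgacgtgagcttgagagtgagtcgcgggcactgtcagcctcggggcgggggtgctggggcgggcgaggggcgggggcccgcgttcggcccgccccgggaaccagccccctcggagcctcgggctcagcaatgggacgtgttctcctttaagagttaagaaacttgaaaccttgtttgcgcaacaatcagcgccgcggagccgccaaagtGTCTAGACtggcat

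The remaining GGCGCC matches are shown as 30 bases around the motif. Of their genes, *Id2* and *Bmpr2* were called in at least 1 comparison below, and *Bmpr1a* and *Smad5* in none. *Smad1*, called higher in WT Adiff, had no GGCGCC in its window. A link between the motif and the changes was not tested. The stretches lie at chr12:25096306-25096335 (minus strand, 231 bases before the start) in *Id2*, chr1:59764162-59764191 (plus strand, 105 bases before) in *Bmpr2*, chr14:34502727-34502756 (minus strand, 198 bases before) in *Bmpr1a* and chr13:56703021-56703050 (plus strand, 23 bases after one RefSeq start and 19 before another) in *Smad5*. All of them lie inside the gene spans given above, so a place before a RefSeq start is not a place outside the gene. In gencode vM21, exons of *Id2*, *Bmpr2* and *Bmpr1a* overlap the 250 bases before these starts. Exons of *Smad5* do so for the later of these 2 starts.
Id2: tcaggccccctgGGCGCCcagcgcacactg
Bmpr2: ctccggcggccgGGCGCCgctgcctgcccc
Bmpr1a: tgcgcgcgcgccGGCGCCtcttgctcgccc
Smad5: ccccggcgagcgGGCGCCgagcgcttgtcc

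Levels spanned a wide range within the pathway. TPM is corrected for transcript length, so levels of different genes can be set side by side. *Bmpr1a* had the highest mean of the 10 genes in 4 groups, from 42.5 ± 3.27 TPM (SD, n = 2) in the Win18,446 libraries labelled PRC1cKO to 63.7 ± 8.44 TPM in WT Adiff. In the untreated PRC1 groups it was at 12.5 ± 1.15 TPM under PRC1ctrl, where it was again the highest, and at 12.8 ± 0.177 TPM under PRC1cKO, where *Id2* (15.9 ± 8.37 TPM) and *Smad5* (13.7 ± 1.26 TPM) had higher means. *Smad6* had the lowest mean in all 4 PRC1 groups, at 0.64 to 1.42 TPM, whereas *Id2* was the lowest in WT Aundiff and *Id4* in WT Adiff. These groups hold 2 libraries each, and neighbours in the order often overlapped.

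**Figure D1:**
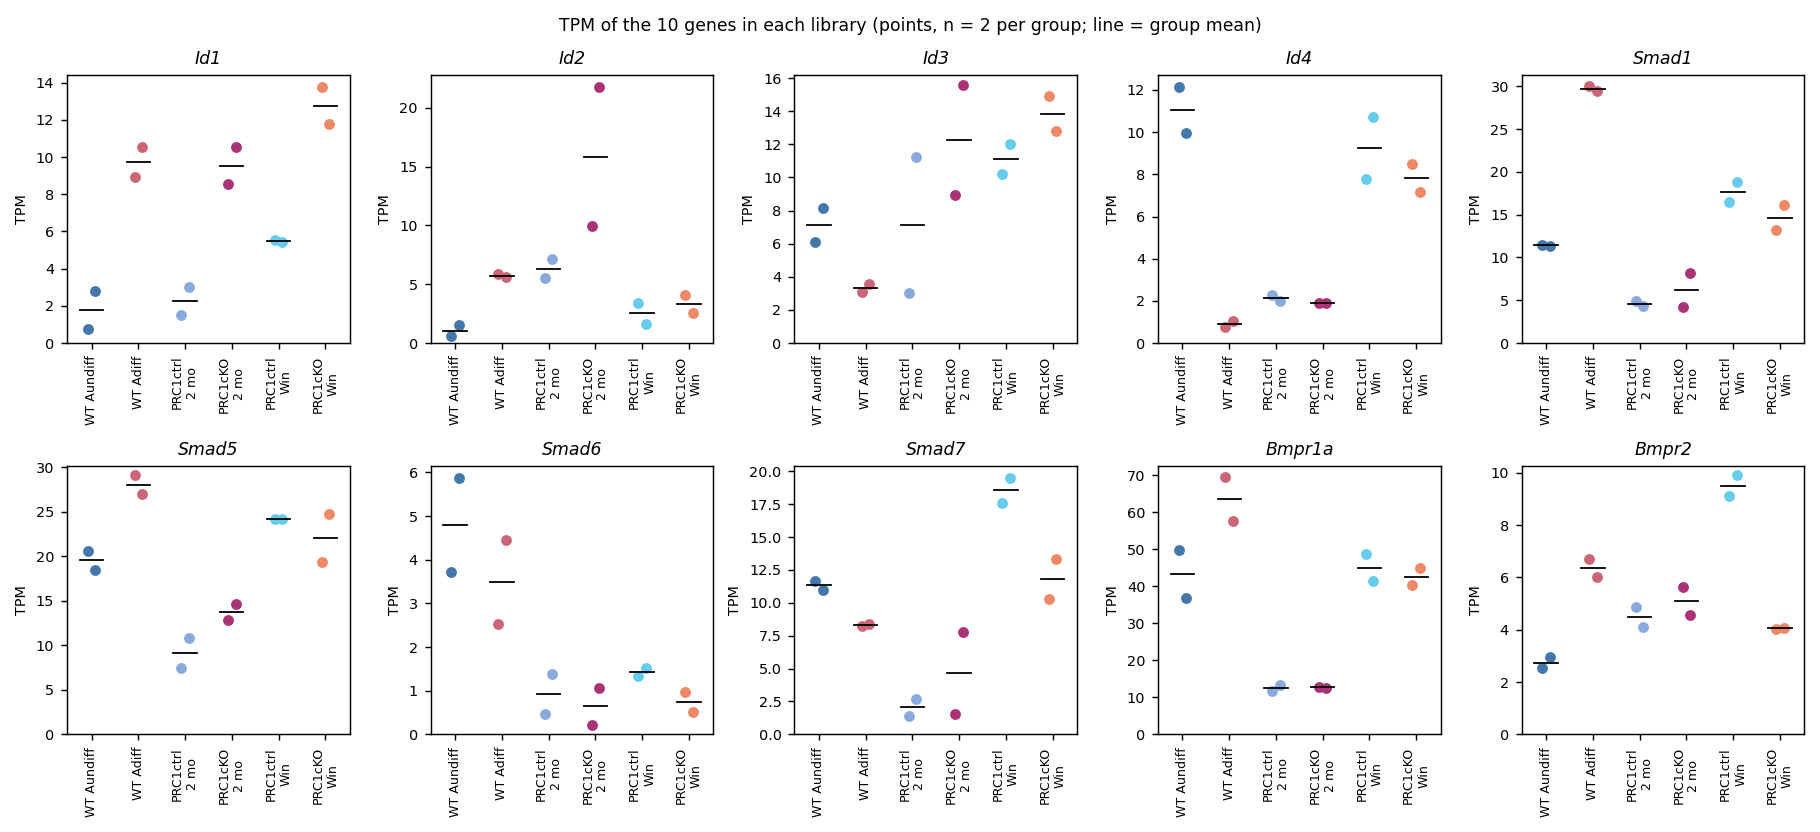
TPM (y axis, linear, a scale for each gene) of the 10 genes in the 6 groups (x axis), with a point for each library and a line at the group mean of 2 libraries. *Id4* is highest in WT Aundiff and the Win18,446 groups and lowest in WT Adiff, and *Id1* is higher in the PRC1cKO libraries than in their PRC1ctrl libraries at both treatments.

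The first comparison asked how the pathway differs between undifferentiated and early differentiating WT spermatogonia. The ID genes moved in opposite directions: *Id1* and *Id2* rose in Adiff, and *Id4* fell. *Smad1* rose as well. A gene was called where limma's adjusted p was under 0.05 and its log2 fold change of (TPM + 1) was above 1 or below -1. All 10 genes were among the 15470 tested, of which 20.4% were called, 11.1% higher and 9.24% lower. Of the 10, 3 were called higher and 1 lower. With any fold change, 38.1% of all genes passed the adjusted p, and of the 10 genes 4 were higher and 2 lower. The 2 libraries of each fraction did not overlap for 9 of the 10 genes, against 72.1% of all genes tested (43.4% higher and 28.7% lower in Adiff). The median log2 fold change was 0.53 over the 10 genes and 0.15 over all genes tested. Over all genes 1724 were called higher and 1430 lower, and median-of-ratios scaling, which brought the median of all genes to -0.0021, gave 1165 and 1748. The calls of *Id1*, *Id2*, *Id4* and *Smad1* were the same with either scaling, and *Id3* was then also called lower (-1.04).

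Among the ID genes, *Id4* was at 12.2 and 9.95 TPM in WT Aundiff and at 0.76 and 1.07 TPM in WT Adiff. The fractions were far apart, with every Adiff library near 1 TPM. *Id4* fell by 2.65 on the log2 scale (SE 0.25, limma adjusted p = 0.00145), and the ratio of mean TPM was 12.1-fold. *Id1* was at 0.78 and 2.80 TPM in Aundiff and at 8.91 and 10.6 TPM in Adiff, and rose by 2.04 (SE 0.39, limma adjusted p = 0.00966). *Id2* was at 0.62 and 1.51 TPM in Aundiff and at 5.88 and 5.61 TPM in Adiff, and rose by 1.74 (SE 0.30, limma adjusted p = 0.00735). Both genes were low in Aundiff, where the 2 libraries differed by more than 2 times. *Id3* followed *Id4* in direction. It was at 6.08 and 8.14 TPM in Aundiff and at 3.08 and 3.58 TPM in Adiff, with a log2 fold change of -0.90 (SE 0.25, limma adjusted p = 0.0317), which passed the adjusted p and not the fold threshold.

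Because these changes ran in opposite directions, the summed TPM of the 4 ID genes was alike in the WT fractions, at 19.6 and 22.4 in Aundiff and 18.6 and 20.8 in Adiff, with overlapping libraries. The make-up of the sum differed. *Id4* supplied 61.9% and 44.4% of ID transcripts in Aundiff and 4.08% and 5.14% in Adiff. *Id1* supplied 3.97% and 12.5% in Aundiff and 47.8% and 50.7% in Adiff, and *Id2* supplied 3.16% and 6.74% against 31.6% and 26.9%. *Id3* supplied 31.0% and 36.3% against 16.5% and 17.2%. These shares are descriptions, and no test was made of them. In bulk samples, a fall in a transcript through fewer cells of a type and through less RNA per cell cannot be told apart.

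**Figure D2:**
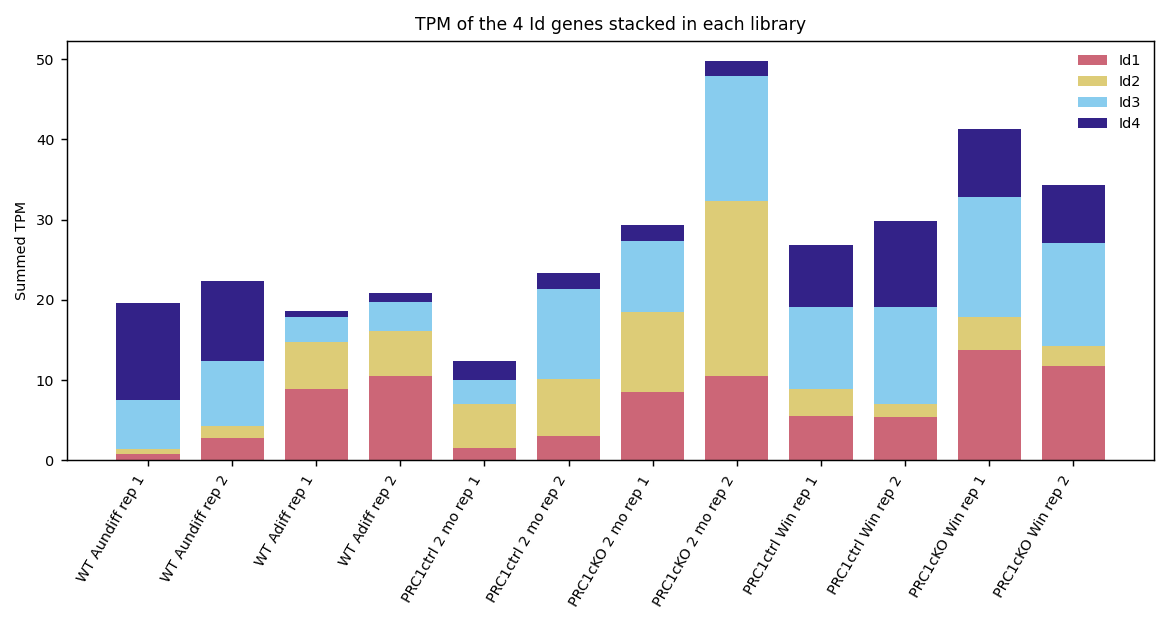
Summed TPM of *Id1*, *Id2*, *Id3* and *Id4* (y axis, stacked bars from 0) in each of the 12 libraries (x axis). The WT bars have similar heights of 18.6 to 22.4 TPM, with *Id4* the largest segment in Aundiff and *Id1* in Adiff.

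Of the receptors, *Bmpr1a* was at 49.9 and 36.9 TPM in WT Aundiff and at 69.6 and 57.7 TPM in WT Adiff, with a log2 fold change of 0.55 (SE 0.19, limma adjusted p = 0.064). *Bmpr2* was at 2.53 and 2.95 TPM in Aundiff and at 6.72 and 6.00 TPM in Adiff. Both Adiff libraries were more than 2 times as high, and the log2 fold change of 0.98 (SE 0.23, limma adjusted p = 0.0204) lay just under the fold threshold. Of the receptor-regulated SMADs, *Smad1* was at 11.5 and 11.3 TPM in Aundiff and at 30.1 and 29.4 TPM in Adiff. Replicates were close together, and *Smad1* rose by 1.31 (SE 0.16, limma adjusted p = 0.00267). *Smad5* was at 20.6 and 18.5 TPM against 29.1 and 26.9 TPM, with a log2 fold change of 0.50 (SE 0.16, limma adjusted p = 0.0513). The inhibitory SMADs had values in the other direction that did not pass the test. *Smad7* was at 11.69 and 10.96 TPM in Aundiff and 8.24 and 8.37 TPM in Adiff (log2 fold change -0.40, 95% interval -0.86 to 0.05). *Smad6* was at 3.72 and 5.87 against 2.53 and 4.45 TPM, with overlapping libraries (log2 fold change -0.38, 95% interval -1.16 to 0.41).

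Markers of other cell types also differed between the WT fractions. Summed TPM of 6 endothelial markers was 9.24 to 19.4 in Aundiff and 5.47 to 6.18 in Adiff, and that of 9 Sertoli cell markers was 60.8 to 67.5 against 38.3 to 39.5. Spermatid markers summed to 853 to 928 against 579 to 769, and 9 spermatocyte markers, higher in Adiff, to 182 to 207 against 265 to 278. The E-Cadherin and CD9 gates were meant to leave out somatic cells. Endothelial cells are known to express ID genes, and the part of such cells in the values of *Id1* to *Id4* was not tested.

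Other genes of the pathway were taken from lists of 70 genes by role, of which 51 were tested in WT, and 9 were called higher and 8 lower in Adiff, counts to be read against 11.1% higher and 9.24% lower of all genes. Their median log2 fold change was 0.18, near the 0.15 of all genes tested. Of 15 ligand genes only 5 passed the filter on low values, and *Bmp7* was the ligand called. It was at 11.1 and 15.7 TPM in Aundiff and at 28.9 and 37.8 TPM in Adiff, a difference of 1.26 on the log2 scale (SE 0.23, limma adjusted p = 0.00862). The type I receptor gene *Bmpr1b* fell from 5.98 and 8.87 to 2.42 and 1.83 TPM, by 1.42 on the log2 scale (limma adjusted p = 0.0109). The type II receptor gene *Acvr2b* rose from 23.5 and 26.2 to 47.0 and 60.3 TPM, by 1.07 (limma adjusted p = 0.00623). Among *Bmpr1a*, *Bmpr1b*, *Bmpr2* and *Acvr2b*, mean TPM was highest for *Bmpr1a* in both fractions, and lowest for *Bmpr2* in Aundiff and for *Bmpr1b* in Adiff. *Acvr2b* was under the fold threshold after median-of-ratios scaling (0.90).

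The extracellular antagonists moved in both directions. *Fst*, which encodes follistatin, an antagonist of activin and BMP, fell from 29.4 and 27.1 to 2.62 and 4.08 TPM, by 2.77 on the log2 scale (SE 0.23, limma adjusted p = 0.00121). The related *Fstl1* fell from 13.4 and 15.7 to 8.37 and 3.60 TPM, by 1.24 (SE 0.35, limma adjusted p = 0.0345), and the 2 Adiff libraries were far apart. *Chrdl2*, of the chordin family of BMP-binding proteins, rose from 1.47 and 1.93 to 11.6 and 10.9 TPM, by 2.19 (SE 0.23, limma adjusted p = 0.00191). *Bmper*, a further secreted BMP-binding protein, rose by 1.36 but stayed low, at 0.11 and 0.16 against 1.61 and 2.23 TPM (limma adjusted p = 0.0138). It passed the filter on low values only through Adiff, the group with the higher values, and was not tested with either Adiff library left out. Inside the cell, *Smurf1*, a ubiquitin ligase for SMADs, rose from 38.4 and 46.3 to 80.1 and 90.9 TPM, and *Skil*, a SMAD corepressor, from 24.9 and 27.0 to 69.2 and 68.1 TPM. Their log2 fold changes were 1.00 (SE 0.16) and 1.37 (SE 0.14), with limma adjusted p of 0.00541 and 0.00171. *Smurf1* was at 0.83 after median-of-ratios scaling, under the fold threshold.

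On the side of the proteins that ID factors act against, 0 of the 3 E protein genes were called by limma, and *Tcf3* (log2 fold change 0.66, adjusted p = 0.0389) and *Tcf12* (0.66, adjusted p = 0.0106) passed the adjusted p alone. Of 6 germ cell bHLH genes 2 were called higher and 1 lower, where 20.4% of all genes were called. *Neurog3*, a factor of undifferentiated spermatogonia, fell from 23.9 and 28.1 to 4.12 and 4.30 TPM, by 2.37 (SE 0.19, limma adjusted p = 0.00118). *Sohlh2*, a factor of spermatogonial differentiation, rose from 85.8 and 79.5 to 168.8 and 166.5 TPM, by 1.01 (SE 0.12, limma adjusted p = 0.00255), and by 0.84 after median-of-ratios scaling. *Ascl2* rose from 8.72 and 13.9 to 34.6 and 48.4 TPM, by 1.80 (SE 0.27, limma adjusted p = 0.00473). Of 7 tested genes listed as other BMP targets in various tissues, 4 were called lower and 1 higher, beside the 9.24% and 11.1% of all genes, and the group as such was not tested. Of the 4, *Msx2* and *Runx2* passed the filter on low values only through Aundiff, where they were higher. The count of lower calls is therefore partly set by the filter. *Atoh8* fell from 65.5 and 87.7 to 18.1 and 21.1 TPM, and *Runx2* from 1.52 and 1.91 to 0.08 and 0.21 TPM. *Msx2* (2.64 and 2.74 against 0.86 and 0.70 TPM) and *Dlx3* (5.29 and 8.44 against 2.19 and 2.95 TPM) fell as well. *Gata2* rose from 6.77 and 6.64 to 13.8 and 20.2 TPM. The log2 fold changes were -1.90, -1.24, -1.05, -1.12 and 1.204 in that order, with limma adjusted p of 0.00165 to 0.0271.

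Several of these calls rested on single libraries. Without WT Aundiff replicate 2, *Bmpr1b* (adjusted p = 0.0694), *Fstl1* (0.131) and *Dlx3* (0.157) were not called, and *Msx2* and *Runx2* did not pass the filter on low values, as they did not without replicate 1. *Fst*, *Neurog3* and *Atoh8* were called lower in every alternative. Without WT Adiff replicate 2, *Msx2* (-0.99) and *Fstl1* (-0.73) were under the fold threshold, as were *Gata2* (0.95), *Acvr2b* (0.90) and *Smurf1* (0.91). *Bmper* was not called without either WT Aundiff library (adjusted p = 0.0674 and 0.0561), and *Sohlh2* not without replicate 2 of Aundiff (0.96) or with the spread of all 12 libraries (adjusted p = 0.181). *Fstl1* was also lost without WT Aundiff replicate 1 (adjusted p = 0.0904), *Acvr2b* (0.996) and *Smurf1* (0.87) likewise, and *Dlx3* without WT Adiff replicate 1 (-0.96). With no filter on low values *Fstl1*, *Msx2* and *Dlx3* did not pass the adjusted p (0.0912, 0.0536 and 0.0675).

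**Figure D3:**
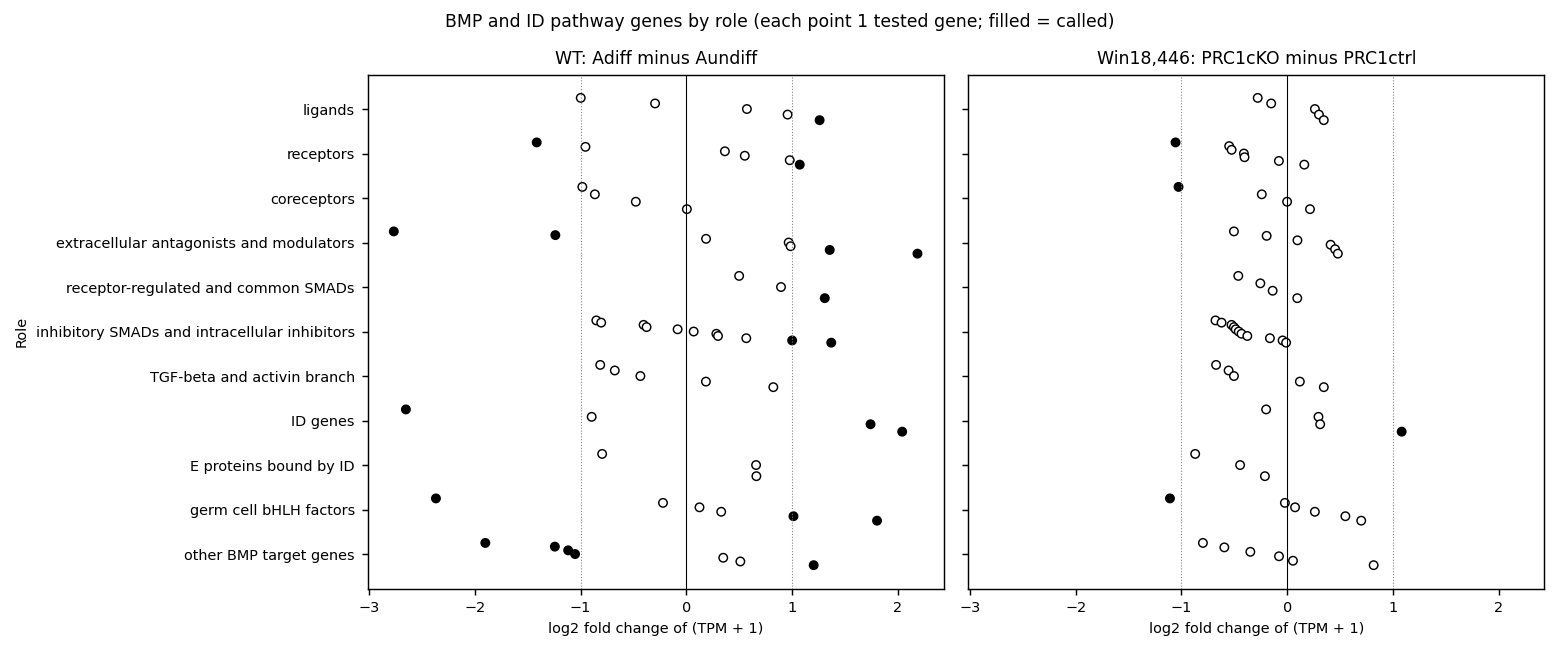
Log2 fold changes of (TPM + 1) (x axis) of all tested BMP and ID pathway genes, the 10 genes included, grouped by role (y axis), in WT Adiff against Aundiff and in PRC1cKO against PRC1ctrl after Win18,446. Each point is 1 gene, filled points are called and dotted lines mark a log2 fold change of 1 in each direction. Among the other BMP target genes, 4 filled points lie below 0 in WT and none after Win18,446, a difference that was not tested. Of the 4, *Msx2* and *Runx2* passed the filter on low values in WT only through Aundiff, where they were higher.

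The second comparison asked how the libraries labelled PRC1cKO differ from those labelled PRC1ctrl in untreated Aundiff at 2 mo. Of the 10 genes, 0 were called by limma in either direction, and 1 had an unadjusted p under 0.05. With a block for replicate number, limma called *Id1* (adjusted p = 0.00238) and *Id2* (adjusted p = 0.0223) higher. Over all genes that block called 1074 higher and 1098 lower, and nothing states that the numbers pair the libraries. *Id1*, *Id2* and *Id3* had the largest log2 fold changes of (TPM + 1), all with higher means under PRC1cKO, and *Smad7* had a larger ratio of mean TPM (2.25) than *Id3* (1.72). All 10 genes were among the 13953 tested, of which 2.16% were called, 0.222% higher and 1.94% lower. The libraries of the 2 labels did not overlap for 4 of the 10 genes, against 44.8% of all genes tested (27.5% higher and 17.3% lower). The median log2 fold change was 0.43 over the 10 genes and 0.22 over all genes, and after median-of-ratios scaling 0.15 and -0.03. Over all genes 31 were called higher and 270 lower, and 84 and 833 with that scaling.

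*Id1* was at 1.52 and 2.99 TPM in the libraries labelled PRC1ctrl and at 8.54 and 10.6 TPM in those labelled PRC1cKO. Both PRC1cKO libraries were well above both PRC1ctrl libraries. The log2 fold change was 1.73 (SE 0.45, 95% interval 0.61 to 2.85), with an unadjusted p of 0.00986 and a limma adjusted p of 0.147. With the spread estimated over all 12 libraries the adjusted p of *Id1* was 0.0117, and the gene was then called. *Id2* was at 5.50 and 7.14 TPM against 9.95 and 21.8 TPM, a log2 fold change of 1.12 (95% interval -0.14 to 2.37, limma adjusted p = 0.403), and the PRC1cKO libraries differed from each other by more than 2 times. *Id3* was at 3.04 and 11.3 against 8.92 and 15.6 TPM, with overlapping libraries (log2 fold change 0.87, 95% interval -0.77 to 2.50). *Id4* was at 2.28 and 1.98 against 1.91 and 1.89 TPM, a small difference between low levels (log2 fold change -0.11, 95% interval -1.05 to 0.83).

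The summed ID transcripts were at 12.3 and 23.4 TPM in the libraries labelled PRC1ctrl and at 29.3 and 49.8 TPM in those labelled PRC1cKO. *Id2* and *Id3* together made up most of the sum in each of these 4 libraries. *Id1* supplied 12.3% and 12.8% under PRC1ctrl and 29.1% and 21.2% under PRC1cKO, and *Id4* supplied 18.5% and 8.48% against 6.51% and 3.79%. Replicate 2 had the higher sum under both labels.

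Receptors and SMADs showed no called difference at 2 mo. *Bmpr1a* was at 11.7 and 13.3 TPM under PRC1ctrl and 12.9 and 12.6 TPM under PRC1cKO (log2 fold change 0.03, 95% interval -0.89 to 0.94), and *Bmpr2* at 4.86 and 4.12 against 5.64 and 4.57 TPM (0.15, -0.86 to 1.16). These intervals leave room for changes of close to 2 times in either direction. *Smad5* was at 7.48 and 10.9 against 12.8 and 14.6 TPM, without overlap (0.55, -0.45 to 1.55), and *Smad1* at 4.87 and 4.28 against 4.18 and 8.22 TPM (0.31, -0.86 to 1.48). *Smad7* was at 1.43 and 2.72 against 1.55 and 7.79 TPM (0.66, -1.06 to 2.37), and the difference in means rested on 1 library, since without PRC1cKO replicate 2 the log2 fold change was -0.24. *Smad6* was at 0.47 and 1.39 against 0.22 and 1.06 TPM, near the limit of the filter in every library. Of the 70 other pathway genes, 40 were tested and 0 were called by limma in either direction, where 2.16% of all genes were called. With the spread of all 12 libraries 3 of them were called, where 1711 of all 13953 genes tested were called (662 higher and 1049 lower). *Bmp7*, at 1.21 and 1.55 against 2.69 and 6.44 TPM, then had a log2 fold change of 1.14 (adjusted p = 0.0485), *Sohlh2*, at 8.39 and 25.9 against 31.1 and 93.9 TPM, of 1.80 (adjusted p = 0.0478), and *Fst*, at 24.2 and 20.0 against 8.80 and 11.9 TPM, of -1.03 (adjusted p = 0.0193). The labels did not overlap for these 3 genes, which were picked by their call, nor for 44.8% of all genes tested.

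Several marker lists moved with the label at 2 mo. Summed TPM of 9 spermatid markers was 779 and 1845 under PRC1ctrl and 59.0 to 65.1 under PRC1cKO, and that of 9 spermatocyte markers 239.6 and 510.2 against 201 to 217. *Tbpl1*, with means of 192 and 180 TPM, supplied most of the spermatocyte sums under PRC1cKO. Of the 8 spermatocyte markers tested, 2 were called lower and 0 higher. Summed TPM of 6 Leydig cell markers was 1.04 and 1.21, with none of the 6 at 1 TPM, against 21.0 and 48.0, with 5 and 6 of them at 1 TPM. That of 6 macrophage markers was 3.69 and 13.4, with *Csf1r* and *C1qa* at 0 in both libraries, against 16.6 and 29.3. That of 6 endothelial markers was 1.27 to 2.46 against 2.77 to 4.66, with at most 1 of the 6 at 1 TPM in any of the 4 libraries. The 12 markers of undifferentiated spermatogonia summed to 955 and 1229 against 453 and 531, and the 9 of differentiating spermatogonia to 271 and 374 against 595 and 759. *Sall4* (mean 611 against 290 TPM) and *Nanos3* (318 against 86.5 TPM) supplied most of the undifferentiated sums. Of the 11 undifferentiated markers tested, 1 was called lower and 0 higher, with a median log2 fold change of -0.29. Of the 9 differentiating markers 0 were called, with a median of 1.46. The part of these markers in the values of *Id1*, *Id2* and *Id3* was not tested.

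The third comparison asked the same of Aundiff from males given Win18,446. *Id1* rose and *Bmpr2* fell in the libraries labelled PRC1cKO. All 10 genes were among the 16521 tested, of which 12.2% were called, 1.27% higher and 10.9% lower. Of the 10 genes, 1 was called higher and 1 lower. With any fold change 32.6% of all genes passed the adjusted p, 5.87% higher and 26.7% lower, and of the 10 genes 1 was higher and 2 were lower. The labels did not overlap for 6 of the 10 genes, against 69.4% of all genes (20.1% higher and 49.3% lower). The median log2 fold change was -0.17 over the 10 genes and -0.19 over all genes. Over all genes 210 were called higher and 1807 lower. The libraries labelled PRC1ctrl held 16537 and 16599 genes at 1 TPM or more, and those labelled PRC1cKO 15098 and 15208. Median-of-ratios scaling, which brought the median of all genes to 0.03, gave 373 and 1246, and quantile normalization gave 587 and 879.

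*Id1* was at 5.52 and 5.45 TPM in the libraries labelled PRC1ctrl and at 13.8 and 11.8 TPM in those labelled PRC1cKO. The groups were clearly apart, with a ratio of mean TPM of 2.33. The log2 fold change was 1.08 (SE 0.16, limma adjusted p = 0.00422). It was 0.98 (adjusted p = 0.0433) without PRC1cKO replicate 1, just under the fold threshold, and with the spread estimated over all 12 libraries the adjusted p was 0.0757. *Id3* was at 10.20 and 12.01 against 14.9 and 12.8 TPM, without overlap but within the error of the fit (log2 fold change 0.30, 95% interval -0.08 to 0.67). *Id2* was at 3.41 and 1.64 against 4.07 and 2.54 TPM (0.31, -0.43 to 1.05), and *Id4* at 7.76 and 10.7 against 8.51 and 7.18 TPM (-0.20, -0.66 to 0.26). Both of these genes had overlapping libraries.

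The ID sum was 26.9 and 29.8 TPM under PRC1ctrl and 41.3 and 34.3 TPM under PRC1cKO. *Id1* supplied 20.5% and 18.3% against 33.4% and 34.3%, and *Id4* supplied 28.9% and 35.9% against 20.6% and 21.0%. The shares of *Id3* were alike, at 37.9% and 40.3% against 36.2% and 37.3%. *Id3* was thus the largest ID transcript in all 4 of these libraries.

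*Bmpr2*, the type II receptor, was at 9.11 and 9.90 TPM in the libraries labelled PRC1ctrl and at 4.02 and 4.08 TPM in those labelled PRC1cKO. The replicates were close and the labels far apart. *Bmpr2* fell by 1.06 on the log2 scale (SE 0.15, limma adjusted p = 0.00439). After median-of-ratios scaling the log2 fold change of *Bmpr2* was -0.85 (adjusted p = 0.00984), and after quantile normalization -0.78 (adjusted p = 0.0136), under the fold threshold in both. *Bmpr1a* was at 48.8 and 41.3 against 40.2 and 44.9 TPM (-0.08, 95% interval -0.40 to 0.24).

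Of the SMADs, *Smad7* was at 17.6 and 19.5 TPM under PRC1ctrl and at 10.3 and 13.3 TPM under PRC1cKO. The labels did not overlap, and the log2 fold change of -0.62 (SE 0.17, limma adjusted p = 0.0311) passed the adjusted p and not the fold threshold. It was -0.39 (adjusted p = 0.0886) after median-of-ratios scaling, -0.32 (adjusted p = 0.137) after quantile normalization and -0.45 (adjusted p = 0.165) without PRC1cKO replicate 1, and the adjusted p was 0.483 with the spread of all 12 libraries. *Smad6* was at 1.33 and 1.51 against 0.96 and 0.52 TPM (-0.49, 95% interval -0.96 to -0.01, adjusted p = 0.106), low in every library. It passed the filter on low values only through PRC1ctrl, the label with the higher values, and was not tested with either PRC1ctrl library left out. *Smad1* was at 16.5 and 18.8 against 13.2 and 16.1 TPM (-0.25, -0.63 to 0.12), and *Smad5* at 24.2 and 24.1 against 19.3 and 24.8 TPM (-0.14, -0.51 to 0.23). The directions of *Smad1*, *Smad5*, *Bmpr1a* and *Id4* were not stable to scaling, since their log2 fold changes were 0.042, 0.15, 0.15 and 0.085 after quantile normalization.

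Of the 70 other pathway genes, 51 were tested after Win18,446 and 2 were called, both lower, where 10.9% of all genes were called lower. *Tgfbr3*, the coreceptor betaglycan, fell from 12.5 and 11.6 to 4.70 and 6.16 TPM, by 1.03 (SE 0.17, limma adjusted p = 0.00669). *Neurog3* fell from 37.3 and 48.9 to 17.8 and 20.8 TPM, by 1.11 (SE 0.17, limma adjusted p = 0.00487). Neither was past the fold threshold after median-of-ratios scaling, at -0.81 and -0.87, and neither was called with the spread of all 12 libraries (adjusted p = 0.117 and 0.212). *Tgfbr3* was also not called without PRC1ctrl replicate 1 (-0.98) or PRC1cKO replicate 1 (-0.86), nor *Neurog3* without PRC1ctrl replicate 2 (-0.92). With any fold change 3 of the 51 were higher and 15 lower, shares to be read against 5.87% and 26.7% of all genes. Among the 15 were the intracellular inhibitors *Ppm1a*, a SMAD phosphatase, at -0.68 (adjusted p = 0.00673), and *Skil* at -0.53 (adjusted p = 0.0305). *Smad3*, of the TGF-beta branch, was at -0.67 (adjusted p = 0.00977), and the E protein gene *Tcf4* at -0.87 (adjusted p = 0.0106). The bHLH genes *Ascl2* (0.70, adjusted p = 0.0234) and *Sohlh2* (0.55, adjusted p = 0.00967) were among the 3 that were higher, with *Dlx3* (0.82, adjusted p = 0.0168).

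After Win18,446, the markers of undifferentiated spermatogonia summed to 936 and 1039 TPM under PRC1ctrl and 715 and 819 TPM under PRC1cKO, and those of differentiating spermatogonia to 508 and 513 against 531 and 570 TPM. *Sohlh1* supplied most of the latter sums, at 371 and 398 against 361 and 397 TPM, so they say little about the other markers of that list. Of its 9 genes, 3 were called higher and 1 lower, where 1.27% and 10.9% of all genes were. Summed spermatid markers were 137 and 152 TPM under PRC1ctrl and 23.8 to 26.0 TPM under PRC1cKO, and endothelial markers 13.9 to 16.9 against 12.2 to 12.9. Leydig cell markers were 82.1 and 397 against 20.6 and 73.2, macrophage markers 23.6 to 35.9 against 19.8 to 22.9, and Sertoli cell markers 135 to 220.0 against 145 to 236. The part of these markers in the values of *Bmpr2*, *Id1* and *Smad7* was not tested.

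**Figure D4:**
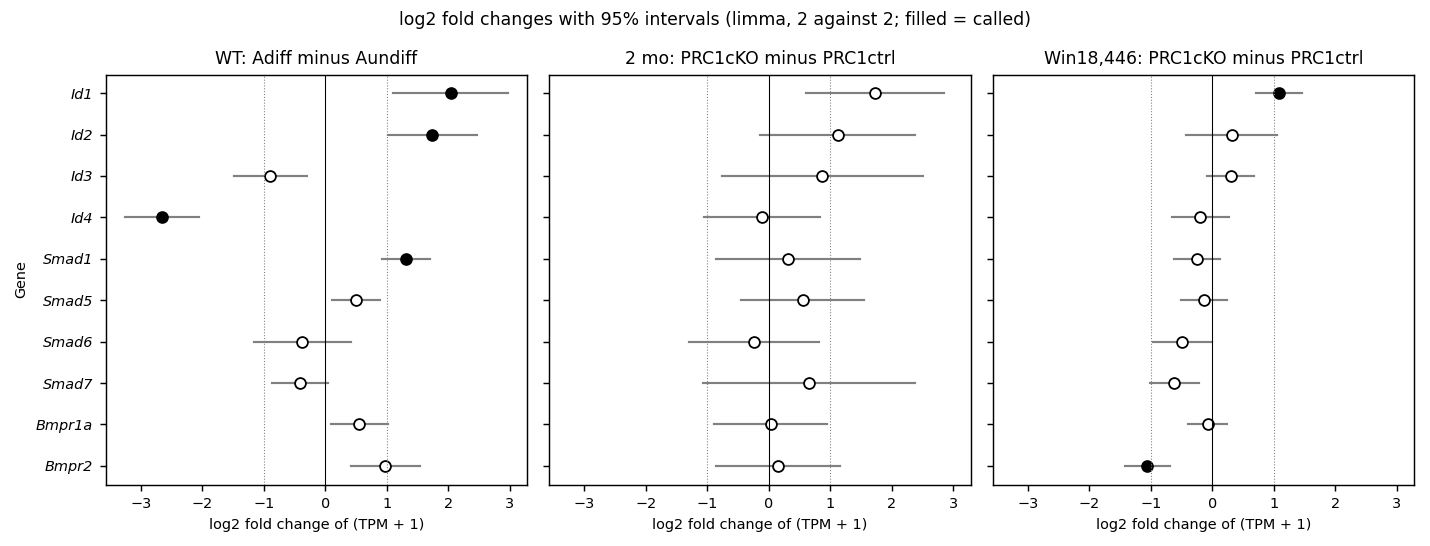
Log2 fold changes of (TPM + 1) with 95% intervals from limma (x axis) for the 10 genes (y axis) in the 3 comparisons of 2 against 2 libraries, with called genes filled and dotted lines at -1 and 1. At 2 mo the intervals are wider and no gene is called, whereas after Win18,446 *Id1* (1.08) and *Bmpr2* (-1.06) are called.

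*Id1* was higher under PRC1cKO in both treatments without overlap, with log2 fold changes of 1.73 at 2 mo and 1.08 after Win18,446. Whether the effect of the label differed between untreated and Win18,446 libraries was tested as an interaction over the 8 PRC1 libraries, in which treatment and library kit cannot be told apart. Of 18354 genes tested, 7.74% were called, 2.76% higher and 4.98% lower, and of the 10 genes 0 were called by limma, with 1 at an unadjusted p under 0.05. That gene was *Bmpr2*, whose difference of log2 fold changes was -1.21 (SE 0.30, limma adjusted p = 0.0607). For *Id1* the difference was -0.64 (SE 0.40, 95% interval -1.59 to 0.31, limma adjusted p = 0.366), and for *Smad7* -1.28 (SE 0.79, 95% interval -3.16 to 0.61). The median difference was -0.61 over the 10 genes and -0.41 over all genes. The differences of all 10 genes were below 0, as was the median of all genes, and after median-of-ratios scaling, with a median of 0.11 over all genes, the median of the 10 genes was -0.0090. That scaling turned 506 genes called higher and 914 lower into 866 and 293.

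Across the 12 libraries, values of log2(TPM + 1) were correlated among some of the 10 genes. These coefficients describe 12 libraries that share kits, strains and treatments, and no p is given. *Smad1*, *Smad5* and *Bmpr1a* went together, with Pearson's r of 0.93 between *Smad1* and *Smad5*, 0.92 between *Smad1* and *Bmpr1a*, and 0.92 between *Smad5* and *Bmpr1a*, and all 3 were low in the low-input libraries. Among the ID genes, *Id2* and *Id4* ran against each other (r = -0.79), and *Id1* was only loosely related to *Id2* (0.48), *Id3* (0.34) and *Id4* (-0.29).

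Among 10992 genes with a mean of at least 5 TPM, those whose pattern over the 12 libraries was most like each ID gene were different for each. For *Id1* they were *Anxa4* (r = 0.94), *Esx1* (0.93) and *Dab1* (0.93). *Esx1* is one of the markers of differentiating spermatogonia listed here. For *Id2* they were *Vamp5* (0.94), *Slbp* (0.92) and *BC003965* (0.92), and for *Id3* *Slc25a20* (0.97), *Rab31* (0.96) and *Ssbp2* (0.94). For *Id4* they were *Lins1* (0.99), *Egr1* (0.99) and *Ighm* (0.97).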

How the data were processed

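The authors trimmed reads with Trim Galore 0.6.6 and deposited TPM per gene from RSEM 1.3.3 on GRCm38, with replicates kept apart. Counts were not analysed here, so depth and counting error are unknown, and TPM is relative: a rise in some genes lowers the others. Of 55385 gene identifiers, 54814 had the coordinates of gencode vM21. From the deposited TPM, log2(TPM + 1) was computed. Groups were compared in limma 3.58.1 under R 4.3.3 by two-sided tests, with its trend and robust settings on, over genes that had at least 1 TPM in at least 2 of the libraries compared, with Benjamini-Hochberg adjustment over all genes tested. An exact permutation of 2 against 2 libraries cannot go below p = 0.33. The script was tested on simulated data. Tables and figures used Python 3.11.15, pandas 2.3.3 and matplotlib 3.10.9.

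The 10 genes and all lists were chosen with earlier results of these data known. The genes named are these 10, list genes called in at least 1 of the 3 comparisons between groups and, for each ID gene, the 3 genes with the highest correlation. Also named are *Ring1* and *Rnf2*, used to check the labels, and *Csf1r* and *C1qa*, for their values of 0 in the untreated PRC1ctrl libraries. *Sohlh1*, *Sall4*, *Nanos3* and *Tbpl1* are named as large parts of summed markers, chosen after their values were seen. The *Ppm1a*, *Smad3* and *Tcf4* values after Win18,446 and those of *Tcf3* and *Tcf12* in WT were chosen after their values were seen. Alternatives were a pseudocount of 0.1, no filter, a mean of at least 5 TPM, median-of-ratios scaling, quantile normalization, a spread estimated from all 12 libraries, limma with neither trend nor robust options, a block for replicate number, and leaving out each library. Protein sequences were not used here.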

Additional observations from a re-analysis of the deposited data

How the results depend on the processing

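TPM give no depth, and each group holds 2 libraries. Of 506 values of the 10 genes under the alternatives, 461 kept their direction and side of the threshold, 32 changed sign (all uncalled), 9 passed the threshold and 4 no longer did. *Id1*, *Id2*, *Id4* and *Smad1* kept their WT calls under every alternative in which they were tested (log2 fold changes 1.49 to 2.62, 1.43 to 2.44, -3.47 to -2.52 and 1.14 to 1.37). Of 217 values of the other named pathway genes 182 kept their call, and 8 of these genes called lower in WT became 3 without WT Aundiff replicate 2. Causes were not tested.

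In WT, 2 of the 10 genes were called lower with a pseudocount of 0.1 (*Id3*, -1.06) and with median-of-ratios scaling, and *Bmpr2* was called with that pseudocount (1.19) and without WT Adiff replicate 2 (1.05). A mean of at least 5 TPM gave 869 genes lower. Left-out libraries gave 1268 to 1596 higher, 816 to 1545 lower (816 and 915 without WT Aundiff replicates 2 and 1), and 3 to 4 and 1 of the 10 genes.

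At 2 mo, genes called higher and lower were 0 and 0 with no filter (2683 at an unadjusted p under 0.05, limma), 6 and 90 with a mean of at least 5 TPM, 84 and 833 with median-of-ratios scaling, 103 and 599 with quantile normalization, 662 and 1049 with all 12 libraries (1 of the 10 genes, *Id1*), and 406 lower with the pseudocount. Left-out libraries gave 1 to 124 (PRC1cKO replicate 1, PRC1ctrl replicate 2) and 44 to 149, each of the 4 moving the lower count by over 1.5 times, and 0 of the 10 genes by limma. With median-of-ratios scaling and quantile normalization *Bmpr1a* was at -0.26 and -0.16, and *Bmpr2* at -0.11 with the former. Left-out ranges were -0.10 to 0.73 for *Smad1*, -0.59 to 0.14 for *Smad6*, -0.24 to 1.55 for *Smad7* and -0.059 to 0.12 for *Bmpr1a*.

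After Win18,446, 0 of the 10 genes were higher with all 12 libraries (*Id1*, adjusted p = 0.0757) and 0 lower with median-of-ratios scaling or quantile normalization. Genes called were 381 higher with the pseudocount, 104 and 851 with a mean of at least 5 TPM, 373 higher with median-of-ratios scaling, and 587 and 879 with quantile normalization. Left-out libraries gave 139 (PRC1cKO replicate 2) to 290 and 899 (PRC1ctrl replicate 2) to 1981, and 0 (PRC1cKO replicate 1) to 1 and 1 of the 10 genes. With median-of-ratios scaling and quantile normalization *Id4* was at 0.020 and 0.085, *Smad5* at 0.097 and 0.15, *Bmpr1a* at 0.16 and 0.15, and *Smad1* at 0.042 with the latter. Left-out ranges were -0.058 to 0.68 for *Id2*, -0.41 to 0.0098 for *Id4*, -0.31 to 0.035 for *Smad5* and -0.19 to 0.038 for *Bmpr1a*.

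In the interaction, 1 of the 10 genes, *Bmpr2*, was called lower with all 12 libraries (adjusted p = 0.0237) and with neither trend nor robust options (0.0468), and its adjusted p reached 0.563 in the other settings that kept every library. Genes called were 226 and 243 with the pseudocount, 334 and 453 with no filter, 90 and 86 with a mean of at least 5 TPM, 866 and 293 with median-of-ratios scaling, 840 and 387 with quantile normalization, and 1494 lower with all 12 libraries. Left-out libraries gave 15 to 322 and 6 to 1214, each moving a count by over 1.5 times, and 0 of the 10 genes by limma. With median-of-ratios scaling *Id3* was at 0.013, *Id4* at 0.50, *Smad1* at 0.080, *Smad6* at 0.23 and *Bmpr1a* at 0.58, and with quantile normalization *Id4* at 0.26, *Smad6* at 0.25 and *Bmpr1a* at 0.33. Left-out ranges were -1.37 to 0.23 for *Id3*, -0.30 to 0.12 for *Id4*, -0.62 to 0.13 for *Smad6* and -0.22 to 0.010 for *Bmpr1a*.

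The labels tie replicates across groups by number alone. The paper describes the PRC1ctrl males as littermates and does not link litters to the numbers. Deviations of same-numbered libraries correlated at 0.16 in WT, 0.38 at 2 mo and 0.12 after Win18,446 across genes. With a replicate block, 1074 genes were higher and 1098 lower at 2 mo, with 2 of the 10 genes higher, *Id1* (adjusted p = 0.00238) and *Id2* (0.0223), and no other call of the 10 changed. Of the other pathway genes it then called *Sohlh2* higher (adjusted p = 7.65e-05) and *Fst* lower (0.0206).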
